A study of Homo sapiens with 12 samples.

Results

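The S100 genes encode small calcium-binding proteins, and 10 of them were followed here by their symbols, S100A2, S100A3, S100A4, S100A6, S100A8, S100A9, S100A10, S100A11, S100A13 and S100A16, out of 25369 gene symbols in the count table. Of the 10 genes, 8 had enough reads to be tested, while S100A8 and S100A9 did not pass the filter on low counts. RNA was sequenced from 12 tumours that had grown from MDA-MB-231, an established human line of triple-negative breast cancer, in the mammary fat pad of mice. Cells in Matrigel had been implanted in 10 mice of each group, and 3 tumours per group were sequenced. Intraperitoneal injections were given on 5 days a week once tumours had reached 100 mm3. Mice of the p38i group were given SB202190, which inhibits p38 MAP kinases, in a daily dose of 1 mg/kg. Mice of the EZH2i group were given an inhibitor of the histone methyltransferase EZH2, spelled EPZ-6428 and EPZ-6438 in different places of the labels, in a daily dose of 10 mg/kg. The combination group received both agents. The control group carried the treatment label None and received the vehicle of 4% DMSO, 30% PEG 300 and 5% Tween 80. The mouse strain, the animals' age and the length of treatment are not given in the sources used here, and all groups rest on the same cell line, so they show the response of 1 human tumour. The host supplies stroma and blood cells of mouse origin, the reads were aligned to a human build, and no step that sets mouse reads aside is recorded.

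S100 proteins pair into dimers and bind calcium through EF-hand loops, a helix-loop-helix motif, after which most of them expose a surface that docks onto target proteins such as annexins, myosin and p53. Some members are also secreted and act outside the cell on receptors such as AGER (RAGE) and TLR4. In breast cancer S100A4 is known as a promoter of metastasis in mouse models, and S100A8 with S100A9 is known as a product of neutrophils and other myeloid cells. EZH2 is the enzyme that places the repressive mark H3K27me3, and p38 kinases carry stress and cytokine signals to transcription factors. Whether either inhibitor, or both together, alters S100 transcripts in tumours is the question the design puts to these genes.

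In the RefSeq gene order of chromosome 1, S100A9, S100A12, S100A8, S100A7A, S100A7, S100A6, S100A5, S100A4, S100A3, S100A2, S100A16, S100A14 and S100A13 follow one another among the protein-coding genes, and S100A10 and S100A11 lie next to each other elsewhere on it. Neighbours in this run went from no read in any library to reads in every library, so the 250 bases upstream of the start of 4 of them are shown, 5′ to 3′ on the gene's strand, from RefSeq on GRCh38.p14. They lie at chr1:153535992-153536241 (minus strand) for S100A6, chr1:153545807-153546056 (minus strand) for S100A4, chr1:153565845-153566094 (minus strand) for S100A2, and chr1:153357604-153357853 (plus strand) for S100A9. Capitals mark every match, on either strand, to TATAAA, the letters of the TATA box. They also mark GGGCGG, the letters of SP1-type sites, which reads CCGCCC where it lies on the other strand. The AP-1 motif TGANTCA, searched in the same way, is marked as well.
S100A6: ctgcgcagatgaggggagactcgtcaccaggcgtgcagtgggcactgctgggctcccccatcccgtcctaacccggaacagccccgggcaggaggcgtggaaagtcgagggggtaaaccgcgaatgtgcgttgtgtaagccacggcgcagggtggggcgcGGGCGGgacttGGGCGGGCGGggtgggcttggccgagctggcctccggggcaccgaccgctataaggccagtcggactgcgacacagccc
S100A4: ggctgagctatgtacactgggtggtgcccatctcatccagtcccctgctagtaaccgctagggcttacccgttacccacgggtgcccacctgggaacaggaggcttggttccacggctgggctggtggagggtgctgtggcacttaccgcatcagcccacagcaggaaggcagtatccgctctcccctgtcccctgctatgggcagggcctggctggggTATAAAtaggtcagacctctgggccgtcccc
S100A2: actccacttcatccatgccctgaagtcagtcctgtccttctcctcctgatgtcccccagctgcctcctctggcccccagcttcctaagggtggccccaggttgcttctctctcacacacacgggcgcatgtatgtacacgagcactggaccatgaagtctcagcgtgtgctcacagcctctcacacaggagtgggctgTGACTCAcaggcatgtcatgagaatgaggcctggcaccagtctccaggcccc
S100A9: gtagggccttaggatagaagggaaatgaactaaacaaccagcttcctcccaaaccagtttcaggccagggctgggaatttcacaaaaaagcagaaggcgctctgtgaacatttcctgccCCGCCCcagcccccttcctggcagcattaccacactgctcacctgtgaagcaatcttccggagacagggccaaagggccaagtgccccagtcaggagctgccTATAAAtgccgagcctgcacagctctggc
The S100A6 window holds 24 CG pairs and 3 matches to GGGCGG, of which the last pair overlap. The S100A4 window holds 7 CG pairs and 1 TATAAA near its end. The S100A2 window holds 4 CG pairs and 1 TGANTCA, while the other S100A2 window in RefSeq holds no match to any of the motifs. The S100A9 window, with 4 CG pairs, holds 1 TATAAA and 1 GGGCGG on the other strand. Over all 35116 such windows the median was 11 CG pairs, and TATAAA stood in 10.7% of windows, GGGCGG in 42.6% and TGANTCA in 6.57%. A match describes the letters only, and whether a factor binds there was not measured.

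S100A8 and S100A9, the subunits of calprotectin that neutrophils release and that bind TLR4 and AGER, were silent at this depth in tumours of every group. S100A9 had 0 counts in all 12 libraries, which allows up to 3 counts in 40662800, or 0.0738 CPM over the series (CPM are counts scaled to a common library size), for counting error only. S100A8 had 1 count in the whole series, in combination tumour 9-1. S100A12, the third calgranulin, was also at 0 in all libraries. Of 11 neutrophil markers, FCGR3B, CSF3R, ELANE and CAMP were at 0 in all libraries, and the summed counts of the list were 15 to 38 in p38i, 17 to 20 in EZH2i, 18 to 26 in combination and 23 to 30 in control libraries. S100A9 could not be compared between groups, S100A8 with its 1 count entered the fit without the low-count filter alone and passed in no comparison there, and no fold change is given. Human neutrophils are not part of a mouse host, and calprotectin of the host's own cells was not analysed here.

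The libraries held between 2208771 counts (EZH2i 6-1) and 4467942 counts (combination 9-1), and 12514 genes passed the low-count filter. The line's markers VIM, CD44, AXL, EGFR, CAV1 and KRT18 each had at least 369 counts in every library, and ESR1 and PGR had 5 to 33 counts. CDH1 and EPCAM, chosen as markers that should lie near 0 in this line, did not all do so: CDH1 ran from 0.249 to 55.4 CPM and EPCAM from 24 to 101 CPM. Along the leading principal component of the 500 most variable genes, with 32.6% of their variance, control 1-1 (score -34.2) and control 1-3 (-18.9) lay at one end and combination 9-2 (18.4) at the other, with control 2-1 (3.32) between them. Skeletal muscle markers summed to 2790 counts in a p38i library, called col6 here, and to at most 74 in any control library. Because 2 p38i samples are labelled with column 5 and no sample with column 6, these columns (col5 and col6) are used as p38i libraries without a tumour number, col6 by elimination. Fibroblast markers summed to 289 to 927 CPM in p38i, 619 to 985 in EZH2i, 550 to 1153 in combination and 444 to 984 in control libraries, ranges that overlap. Of 24 tested markers of other cell types, 2 passed edgeR's test in p38i against control, where 1.77% of all genes did, and 0 passed in EZH2i or in the combination. The endothelial TIE1 rose, with 9, 21 and 29 counts in p38i 3-3, col5 and col6, against 0, 2 and 3 counts in control 1-1, 1-3 and 2-1 (adjusted p = 0.0298). All control libraries thus lay at or under the floor of 3 counts, and no fold is given. The endothelial list as a whole summed to 20.2 to 26.7 CPM in p38i and 18.9 to 27.1 CPM in control libraries, with 1 positive and 3 negative estimates among the 4 tested and a median of -0.32. The fibroblast and pericyte receptor PDGFRB fell, with 25, 46 and 29 counts, against 162, 117 and 64 counts in the same libraries (adjusted p = 0.0433). Of the 8 fibroblast markers tested, 3 estimates were positive and 5 negative, with a median of -0.14, and PDGFRB alone passed. Whether TIE1 and PDGFRB still pass with a library left out was not examined. In such bulk samples fewer cells of a type and less RNA per cell cannot be told apart. Nor can human tumour cells be told apart from mouse host cells whose reads aligned to the human build.

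**Figure D1:**
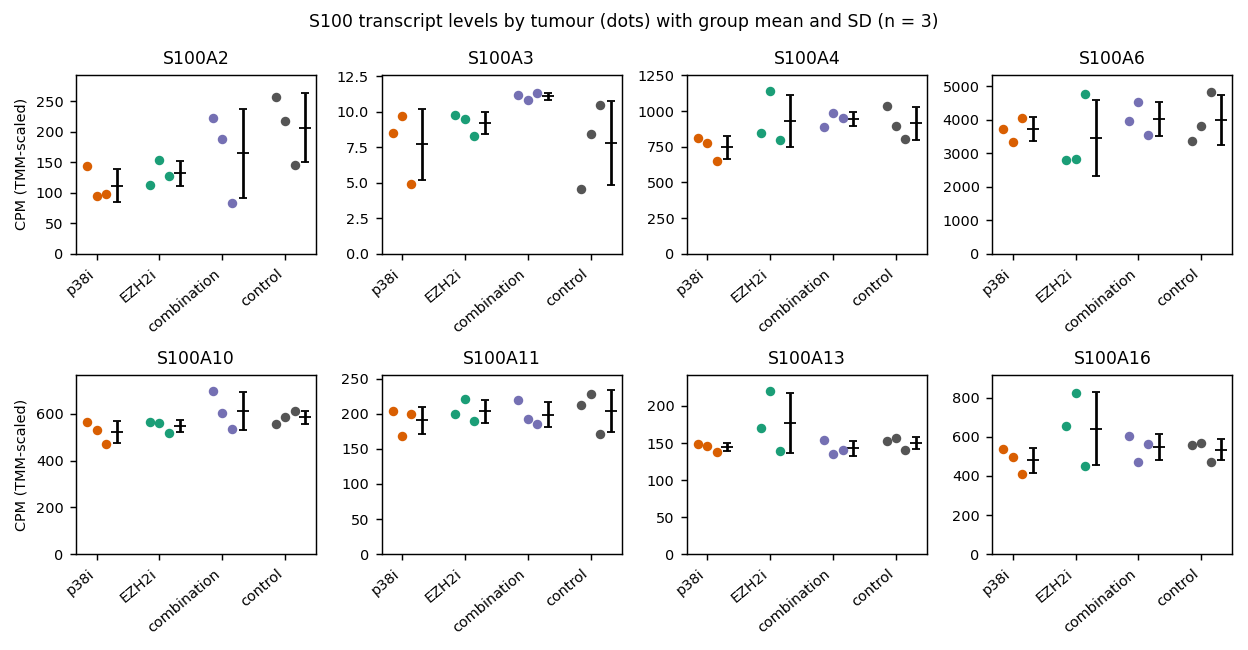
Level of each tested S100 gene in CPM (vertical axis, from 0, own scale per gene) in every tumour library (dots), with mean and SD per group beside them (n = 3). S100A2 spans 94.4 to 143 CPM in p38i and 145 to 257 in control tumours, S100A3 sits within 10.8 to 11.3 CPM in the combination, and every treated group of the other 6 genes overlaps the control.

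None of the 8 tested S100 genes passed the test in p38i against control tumours, and the gene nearest to it was S100A2, which was 1.84-fold lower. In edgeR's quasi-likelihood test 0 of 8 had an adjusted p below 0.05, against 1.77% of all genes tested, and 1 of 8, S100A2, had an unadjusted p below 0.05, against 18.4% of all genes. DESeq2 and limma-voom also called 0 of 8. All 8 estimates were negative, with a median log2 fold change of -0.13 against -0.00 over all genes, of which 50.1% were negative. The estimates ran from -0.88 (S100A2) to -0.05 (S100A13). With library totals as the only scaling, 7 of 8 were negative. Without control 2-1 6 of 8 were negative, and 7 of 8 without control 1-3, p38i col5 or p38i col6. In 1 of 8, S100A2, no p38i library overlapped the control libraries, against 24.8% of all genes.

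In EZH2i against control tumours the tested S100 genes were spread to both sides of 0, and 0 of 8 passed edgeR's test, against 0.216% of all genes. At an unadjusted p below 0.05 there were also 0 of 8, against 14.7% of all genes. This count rested on EZH2i 6-1, without which edgeR had 3 of 8 at the unadjusted level and 0 past the threshold. The share of all genes in that fit was not counted. DESeq2 and limma-voom called 0 of 8 after adjustment, with 1 and 0 at the unadjusted level. Estimates were positive for 5 and negative for 3, with a median of 0.01, equal to the 0.01 over all genes. They ran from -0.64 (S100A2) to 0.27 (S100A16). In 0 of 8 did the groups separate without overlap, against 16.4% of all genes. The smallest adjusted p in edgeR was 0.364, for S100A2.

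In combination against control tumours the estimates again lay on both sides of 0, and S100A3 had the highest. In edgeR 0 of 8 passed, against 0.00799% of all genes, 0 of 8 had an unadjusted p below 0.05, against 16.3%, and DESeq2 and limma-voom called 0 of 8 with 0 at the unadjusted level. Estimates were positive for 5 and negative for 3, with a median of 0.02 against 0.01 over all genes, and ran from -0.32 (S100A2) to 0.47 (S100A3). In 1 of 8, S100A3, which was higher, the groups did not overlap, against 22% of all genes. All of these comparisons share the same 3 control libraries, so their estimates are not independent of each other.

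**Figure D2:**
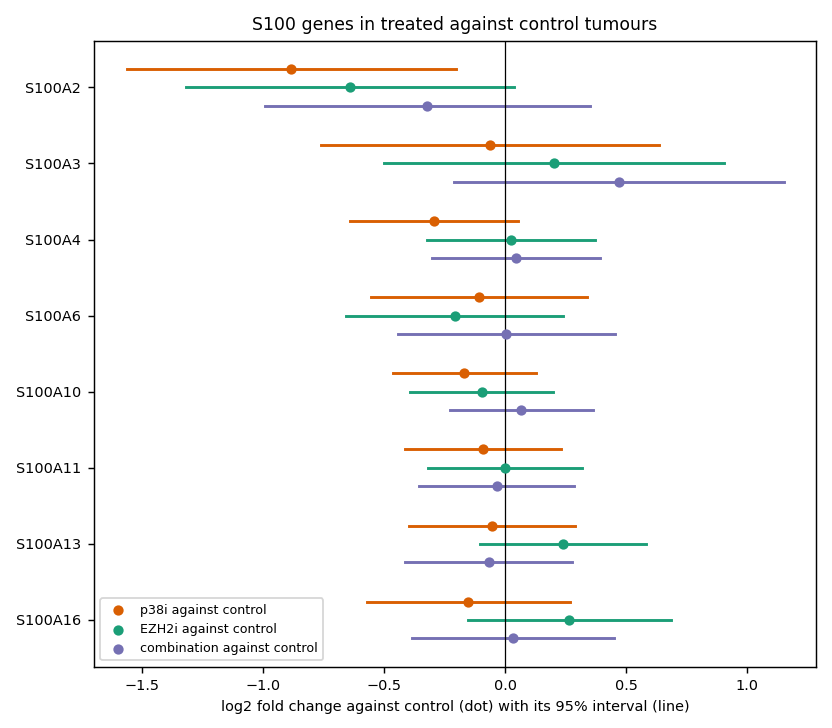
Log2 fold change of the 8 tested S100 genes (rows) in p38i, EZH2i and combination tumours against control (dots, horizontal axis) with 95% intervals of each single estimate (lines). The interval of S100A2 in p38i, -1.56 to -0.20, lies below 0, all others in the plot include 0, and no gene passed the adjusted threshold.

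Set against each other, the treated groups did not separate the S100 genes in the test either. In combination against p38i 0 of 8 passed edgeR's test (0% of all genes), with 0 of 8 at an unadjusted p below 0.05 (7.81% of all genes), and 1 at that level in DESeq2 and 1 in limma-voom. In that comparison 7 estimates were positive, with a median of 0.21 against 0.01 over all genes, and S100A3 and S100A4 did not overlap between groups, 2 of 8 against 15% of all genes. In combination against EZH2i 0 of 8 passed (0% of all genes), with 0 of 8 at the unadjusted level (3.12% of all genes), also in DESeq2 and limma-voom. There 5 estimates were positive, and 1 gene, S100A3, did not overlap, against 7.11% of all genes. In EZH2i against p38i 0 of 8 passed (0% of all genes), with 0 of 8 at the unadjusted level (3.4% of all genes) and 1 in DESeq2 and 0 in limma-voom. There 7 estimates were positive, with a median of 0.25 against 0.02 over all genes, and 0 of 8 groups separated, against 7.62%.

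The factorial terms gave the same counts. For the mean of the 6 libraries with SB202190 against the 6 without, 0 of 8 passed edgeR's test (0% of all genes) and 0 of 8 had an unadjusted p below 0.05 (9.36% of all genes). For the 6 libraries with the EZH2 inhibitor against the 6 without, 0 of 8 passed (0% of all genes) and 0 of 8 were below 0.05 unadjusted (9.33% of all genes). DESeq2 and limma-voom gave 0 for both terms at both levels. The interaction, which asks on the log2 scale whether the combination departs from the sum of the single effects, gave 0 of 8 calls in edgeR (0.024% of all genes) and 1 of 8 unadjusted, S100A2, against 13.1% of all genes. DESeq2 and limma-voom also gave 0 calls and 1 at the unadjusted level.

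S100A2, a mainly nuclear and epithelial member that binds p53, varied most over the libraries among the 8 tested genes of the 10 followed. It had 143, 94.4 and 98.1 CPM in p38i tumours 3-3, col5 and col6, and 113, 154 and 128 CPM in EZH2i tumours 5-3, 5-4 and 6-1. It had 223, 189 and 82.5 CPM in combination tumours 8-1, 9-1 and 9-2, against 257, 217 and 145 CPM in control tumours 1-1, 1-3 and 2-1. The p38i tumours all lay below the control tumours, narrowly so between p38i 3-3 and control 2-1, whereas the EZH2i and combination groups overlapped the control and the combination tumours held both a high pair and the lowest library of all. Means were 112 ± 27.2 CPM in p38i, 132 ± 20.8 in EZH2i, 165 ± 73.3 in combination and 206 ± 56.6 in control tumours (SD, n = 3 each), and no neighbours in this order differed beyond their spread. The log2 fold change against control was -0.88 (95% interval -1.56 to -0.20, adjusted p = 0.158) in p38i, -0.64 (-1.32 to 0.04, adjusted p = 0.364) in EZH2i and -0.32 (-0.99 to 0.35, adjusted p = 0.617) in the combination. The interaction was 1.2 (0.25 to 2.16, adjusted p = 0.264), which did not pass the threshold. With each library left out in turn, the p38i estimate ran from -1.10 to -0.69, and its adjusted p from 0.0704 without control 2-1 to 0.432 without control 1-1. The EZH2i estimate ran from -0.84 without control 2-1 to -0.45 without control 1-1, and that of the combination from -0.59 without combination 8-1 to 0.0025 without combination 9-2. The libraries highest in S100A2 include control 1-1 and 1-3, which lay together at one end of the leading component, and its lowest is combination 9-2, at the other end. The part of that component in the differences was not tested.

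S100A4 (metastasin), which binds the myosin heavy chain MYH9 and liprin beta 1 (PPFIBP1) and promotes motility, overlapped between each treated group and the control. It had 808, 775 and 653 CPM in p38i tumours 3-3, col5 and col6, and 849, 1138 and 799 CPM in EZH2i tumours 5-3, 5-4 and 6-1. It had 889, 988 and 949 CPM in combination tumours 8-1, 9-1 and 9-2, against 1036, 897 and 807 CPM in control tumours 1-1, 1-3 and 2-1. The p38i tumours lay low, with p38i 3-3 just above the lowest control tumour, and all combination tumours lay above all p38i tumours. The log2 fold change was -0.29 in p38i (-0.64 to 0.05, adjusted p = 0.355), 0.03 in EZH2i (-0.32 to 0.37) and 0.05 in the combination (-0.30 to 0.39) against control. Between combination and p38i it was 0.34 (-0.01 to 0.69, adjusted p = 0.644), or 1.26-fold with an interval of 0.994 to 1.61. In the GENCODE annotation of GRCh38 the S100A3 and S100A4 genes overlap on the same strand, so reads of the overlap could be given to either.

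S100A6 (calcyclin), the partner of CACYBP and annexins, had 3732, 3345 and 4059 CPM in p38i tumours 3-3, col5 and col6 and 2789, 2824 and 4767 CPM in EZH2i tumours 5-3, 5-4 and 6-1. It had 3959, 4538 and 3546 CPM in combination tumours 8-1, 9-1 and 9-2, against 3355, 3812 and 4825 CPM in control tumours 1-1, 1-3 and 2-1. EZH2i tumours 5-3 and 5-4 were the lowest of the 12 and EZH2i 6-1 was second to control 2-1, so the spread within EZH2i covered nearly the whole range. Means were 3712 ± 357 CPM in p38i, 3460 ± 1132 in EZH2i, 4014 ± 498 in combination and 3997 ± 753 in control tumours (SD, n = 3 each). Intervals of the log2 fold change against control were -0.55 to 0.34 in p38i, -0.66 to 0.24 in EZH2i and -0.44 to 0.45 in the combination. An antisense gene overlaps S100A6 in GENCODE, and whether the counting used strand is not given in the sources used here.

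S100A10 and S100A11, the members that pair with annexins, were the steadiest. S100A10 (p11), which needs no calcium to bind annexin A2 and helps to present plasminogen at the cell surface, had 563, 530 and 470 CPM in p38i tumours 3-3, col5 and col6 and 564, 559 and 519 CPM in EZH2i tumours 5-3, 5-4 and 6-1. It had 699, 604 and 536 CPM in combination tumours 8-1, 9-1 and 9-2, against 557, 585 and 612 CPM in control tumours 1-1, 1-3 and 2-1. The group ranges overlapped, and the intervals of its log2 fold change were -0.46 to 0.13 in p38i, -0.39 to 0.20 in EZH2i and -0.23 to 0.36 in the combination. S100A11 (calgizzarin), a partner of annexin A1, had 204, 169 and 200 CPM in p38i tumours 3-3, col5 and col6, and 199, 221 and 189 CPM in EZH2i tumours 5-3, 5-4 and 6-1. It had 219, 192 and 185 CPM in combination tumours 8-1, 9-1 and 9-2, against 212, 228 and 171 CPM in control tumours 1-1, 1-3 and 2-1. Its highest library held 1.35 times the level of its lowest, the smallest such ratio of the 8 genes, where S100A2 had the largest, 3.11. Between EZH2i and control the S100A11 fold had an interval of 0.802 to 1.25, which bounds but does not exclude smaller changes. GENCODE lists 2 processed pseudogenes of S100A11 on chromosome 7 and an antisense overlap, and how the counting treated them is not recorded.

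S100A13, which takes part in the release of FGF1 and IL1A, had 148, 147 and 138 CPM in p38i tumours 3-3, col5 and col6, and 170, 220 and 139 CPM in EZH2i tumours 5-3, 5-4 and 6-1. It had 154, 135 and 140 CPM in combination tumours 8-1, 9-1 and 9-2, against 152, 157 and 141 CPM in control tumours 1-1, 1-3 and 2-1. The EZH2i group held both the highest libraries and a library below all controls, and all groups overlapped. S100A16, a broadly expressed member, had 536, 495 and 410 CPM in p38i tumours 3-3, col5 and col6, and 653, 821 and 449 CPM in EZH2i tumours 5-3, 5-4 and 6-1. It had 602, 472 and 564 CPM in combination tumours 8-1, 9-1 and 9-2, against 559, 570 and 471 CPM in control tumours 1-1, 1-3 and 2-1. Like S100A13, it was highest in EZH2i 5-4 and 5-3, with EZH2i 6-1 below every control tumour. The log2 fold change between EZH2i and control was 0.24 (-0.10 to 0.58, adjusted p = 0.508) for S100A13 and 0.27 (-0.15 to 0.68, adjusted p = 0.549) for S100A16. Without EZH2i 5-4 these estimates were 0.05 and 0.05, and without EZH2i 6-1 they were 0.39 and 0.48. In GENCODE a processed transcript overlaps S100A13 on the same strand, so reads of the overlap could be given to either, and S100A1, with 5 counts in the whole series, overlaps it on the opposite strand.

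S100A3, known from the hair cuticle, where the deiminase PADI3 modifies it, was near the lower end of what the test could use, with 11 to 49 counts per library. It had 8.52, 9.66 and 4.89 CPM in p38i tumours 3-3, col5 and col6, and 9.76, 9.45 and 8.29 CPM in EZH2i tumours 5-3, 5-4 and 6-1. It had 11.1, 10.8 and 11.3 CPM in combination tumours 8-1, 9-1 and 9-2, against 4.58, 8.41 and 10.4 CPM in control tumours 1-1, 1-3 and 2-1. The combination tumours lay above every tumour of the other groups, nearest to control 2-1. Taken pair by pair, the combination did not overlap control in 22% of all genes, p38i in 15% and EZH2i in 7.11%. The share for all groups at once was not counted. The combination values rest on 38, 49 and 36 counts, so their close spacing and the gap to control 2-1 include counting error. Means were 7.69 ± 2.49 CPM in p38i, 9.17 ± 0.771 in EZH2i, 11.1 ± 0.26 in combination and 7.80 ± 2.97 in control tumours (SD, n = 3 each). The log2 fold change of the combination against control was 0.47 (-0.21 to 1.15, adjusted p = 0.464), and its interval reached 2.22-fold. With each library left out in turn the estimate ran from 0.23 without control 1-1 to 0.74 without control 2-1.

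Over the 12 libraries the SD of log2 CPM was 0.53 for S100A2, 0.40 for S100A3, 0.27 for S100A16, 0.26 for S100A6, 0.21 for S100A4, 0.19 for S100A13, and 0.14 for both S100A10 and S100A11. EZH2i 5-4 was the highest library for 3 of the 8 genes, S100A4, S100A13 and S100A16, and p38i col6 the lowest for 3, S100A4, S100A10 and S100A16. The other 10 libraries were each highest or lowest for at most 1 gene apiece at either end. The genes whose profile was most like that of a member were found by the root mean square difference of centred log2 CPM over the 12 libraries. For S100A2 these were EPS8L2 (0.226), BCL3 (0.227), KRT18 (0.245), SDCBP2-AS1 (0.248) and CMTM4 (0.252). For S100A3 they were ALG10 (0.189), LPHN2 (0.198), IGF2BP3 (0.212), SEC23A (0.216) and SAMD8 (0.223). For S100A16 they were SPG21 (0.109), MED23 (0.110), NXF1 (0.111), RELA (0.117) and its near neighbour S100A13 (0.120). The libraries share depth and tumour make-up across all genes, so likeness is a description only.

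**Figure D3:**
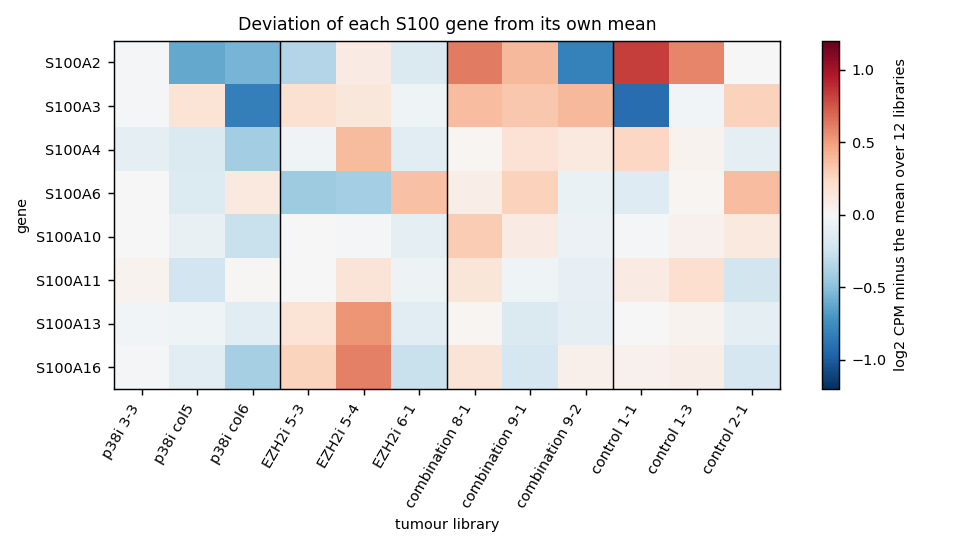
Deviation of each tested S100 gene (rows) from its own mean over the 12 libraries (columns, by group) in log2 CPM, in red where higher and blue where lower. S100A2 and S100A3 show the strongest colours (SD 0.53 and 0.40), EZH2i 5-4 is high for S100A4, S100A13 and S100A16, and S100A10 and S100A11 are pale throughout (SD 0.14).

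Another 11 rows of the table carry S100 symbols, and 1 of them, S100A14, an epithelial member, passed the low-count filter. It had 16, 1 and 7 counts in p38i tumours 3-3, col5 and col6, and 0, 2 and 1 counts in EZH2i tumours 5-3, 5-4 and 6-1. It had 8, 8 and 0 counts in combination tumours 8-1, 9-1 and 9-2, against 16, 17 and 2 counts in control tumours 1-1, 1-3 and 2-1. All EZH2i tumours lay at or under the floor of 3 counts, as did p38i col5, combination 9-2 and control 2-1, so groups overlapped, and no fold is given. Its adjusted p in edgeR was 0.749 in p38i, 0.256 in EZH2i and 0.475 in the combination against control. S100A12 and S100A7L2 were at 0 in all libraries, and the remaining 8 rows had at most 18 counts in any library.

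S100A14 was high in the same tumours as CDH1 (E-cadherin, which joins epithelial cells), a comparison chosen after the values were seen. CDH1 had 33.4, 0.552 and 3.91 CPM in p38i tumours 3-3, col5 and col6, and 4.47, 0.249 and 2.62 CPM in EZH2i tumours 5-3, 5-4 and 6-1. It had 42.2, 40.7 and 0.941 CPM in combination tumours 8-1, 9-1 and 9-2, against 55.4, 28.8 and 4.03 CPM in control tumours 1-1, 1-3 and 2-1. The 5 libraries highest in CDH1 were p38i 3-3, combination 8-1 and 9-1, and control 1-1 and 1-3. The same 5 were highest in S100A14 and in EPCAM, though for S100A14 the fifth, combination 9-1 with 1.76 CPM from 8 counts, stood barely above p38i col6 with 1.71 CPM from 7 counts. Of the 5, 4 were among the 5 highest in S100A2 and in KRT18. KRT18 is among the genes picked above for their likeness to S100A2, so these rankings are not separate. The share of all genes with such a ranking was not counted. EPCAM had 54.9, 32.3 and 37.9 CPM in p38i tumours 3-3, col5 and col6, and 24, 35 and 25.3 CPM in EZH2i tumours 5-3, 5-4 and 6-1. It had 65.1, 57.5 and 27.6 CPM in combination tumours 8-1, 9-1 and 9-2, against 101, 62.7 and 35.8 CPM in control tumours 1-1, 1-3 and 2-1. These high tumours came from the p38i, combination and control groups, and not from EZH2i. For EPCAM all EZH2i tumours lay below all control tumours, narrowly between EZH2i 5-4 and control 2-1, and 16.4% of all genes did not overlap there. Its log2 fold change was -1.21 (-2.03 to -0.39, adjusted p = 0.184), which did not pass. CDH1 overlapped between EZH2i and control and did not pass either (adjusted p = 0.360). Of 11 keratinocyte markers, IVL and LOR were at 0 in all libraries, and the list summed to 116 to 149 CPM in p38i, 136 to 155 in EZH2i, 116 to 165 in combination and 107 to 142 in control libraries. KRT10 made up 94% of the counts of that sum, and the other markers together had 13 to 32 counts in p38i, 5 to 12 in EZH2i, 18 to 36 in combination and 20 to 76 in control libraries. Within it, KRT6A, picked out after its values were seen, had 20 counts in p38i 3-3 and 0 in col5 and col6, 0, 0 and 1 in the EZH2i tumours, and 3, 6 and 0 in the combination tumours. It had 44, 58 and 1 counts in control tumours 1-1, 1-3 and 2-1. The part of such cell differences in the S100A2 values was not tested.

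**Figure D4:**
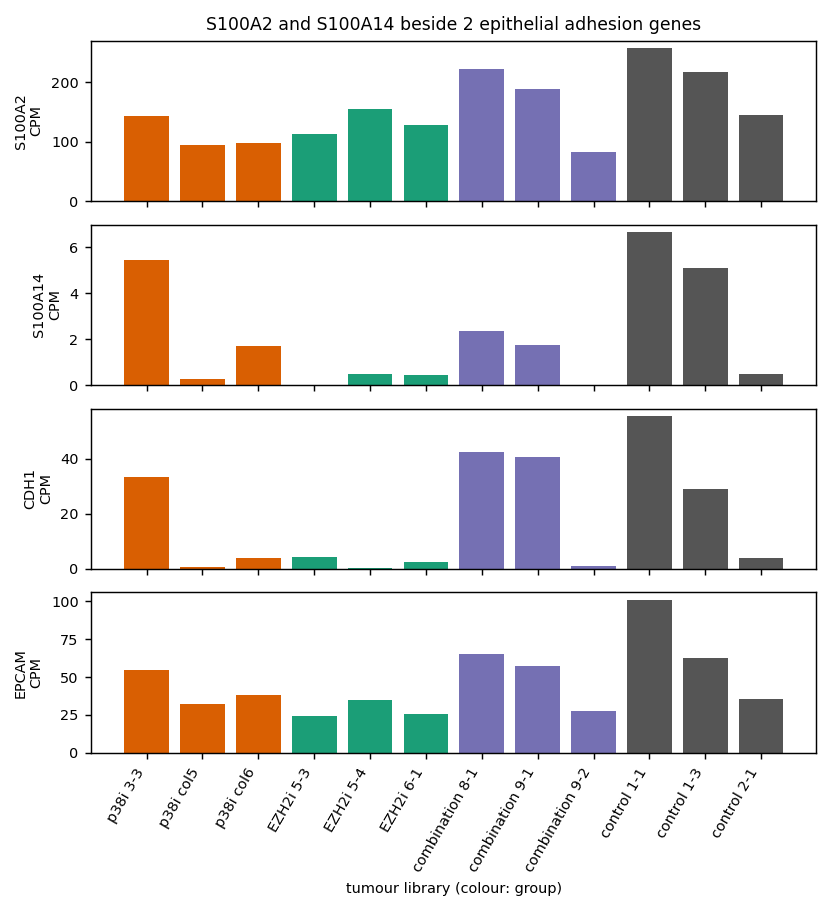
CPM of S100A2, S100A14, CDH1 and EPCAM (panels, vertical axes from 0) in each of the 12 tumour libraries (bars, colours by group). The 5 libraries highest in CDH1, p38i 3-3, combination 8-1 and 9-1 and control 1-1 and 1-3, are also the 5 highest in EPCAM and, by a margin of 1.76 against 1.71 CPM, in S100A14, and S100A2 shares 4 of them.

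Among the proteins that S100 members dock onto inside the cell, 1 gene fell in p38i against control tumours, PPFIBP1, which encodes liprin beta 1, a partner of S100A4. PPFIBP1 had 179, 163 and 177 CPM in p38i tumours 3-3, col5 and col6, against 376, 319 and 305 CPM in control tumours 1-1, 1-3 and 2-1. The groups did not overlap, as in 24.8% of all genes. PPFIBP1 was 1.93-fold lower (log2 fold change -0.95, SE 0.209, adjusted p = 0.0403 in edgeR). It had 317, 153 and 213 CPM in EZH2i tumours 5-3, 5-4 and 6-1 and 232, 202 and 194 CPM in combination tumours 8-1, 9-1 and 9-2. Its log2 fold change against control was -0.55 (adjusted p = 0.241) in EZH2i and -0.67 (adjusted p = 0.197) in the combination, neither of which passed. Of the 22 partners 17 were tested, and in p38i 0 rose and 1 fell, where 1.77% of all genes passed, with 6 estimates positive and 11 negative and a median of -0.10 against -0.00 over all genes. In EZH2i 0 of 17 passed edgeR's test, against 0.216% of all genes, with 9 positive and 8 negative and a median of 0.01 against 0.01, and in the combination 0 of 17 passed, against 0.00799%, with 8 positive and 9 negative and a median of -0.07 against 0.01. AHNAK, the large scaffold bound by S100A10 with annexin A2, came nearest in EZH2i, at -0.58 (adjusted p = 0.075). It also lay below all control tumours (1256 to 1361 CPM) in p38i (911 to 1006 CPM) and in the combination (888 to 1091 CPM). It passed in neither, and 24.8% and 22% of all genes did not overlap there. CACYBP, the S100A6 partner, was at 0.67 in p38i (adjusted p = 0.0754), 0.69 in EZH2i (adjusted p = 0.124) and 0.61 in the combination (adjusted p = 0.193).

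Among 16 receptors and surface partners, 1 gene fell in p38i tumours, BSG, which encodes basigin, a surface glycoprotein that binds S100A9. BSG had 31.4, 29 and 32.5 CPM in p38i tumours 3-3, col5 and col6, against 55.8, 55.2 and 49.1 CPM in control tumours 1-1, 1-3 and 2-1. The groups did not overlap, as in 24.8% of all genes. BSG was 1.72-fold lower in p38i (log2 fold change -0.78, SE 0.163, adjusted p = 0.0339 in edgeR). It had 45.5, 38 and 34 CPM in EZH2i tumours 5-3, 5-4 and 6-1 and 44, 42.5 and 38.9 CPM in combination tumours 8-1, 9-1 and 9-2. Against control it was at -0.44 (adjusted p = 0.238) in EZH2i and -0.35 (adjusted p = 0.299) in the combination. Of the 16 genes 11 were tested, and in p38i 0 rose and 1 fell, against 1.77% of all genes that passed, with 6 positive and 5 negative and a median of 0.14 against -0.00 over all genes. In EZH2i 0 of 11 passed, against 0.216% of all genes (median 0.17 against 0.01), and in the combination 0 of 11, against 0.00799% (median 0.27 against 0.01). AGER was at 0.14 (-0.94 to 1.23) and TLR4 at -0.23 (-0.85 to 0.40) in p38i against control, neither past the threshold. In combination against p38i the difference did not pass the test for BSG (0.43, adjusted p = 0.585) or for PPFIBP1 (0.27, adjusted p = 0.778). With each library left out in turn BSG passed in 6 of 12 fits and PPFIBP1 in 5 of 12, and both were lost without any of p38i 3-3, col5 and col6, control 1-1 and 1-3, or combination 9-1. PPFIBP1 was also lost without combination 9-2. Their adjusted p then lay between 0.0536 and 0.139, while over all 12 fits the log2 fold change stayed at -0.84 to -0.71 for BSG and -1.0 to -0.84 for PPFIBP1. Both passed under each of the 5 alternative settings, with adjusted p of 0.00214 to 0.0426 for BSG and 0.00167 to 0.0440 for PPFIBP1.

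**Figure D5:**
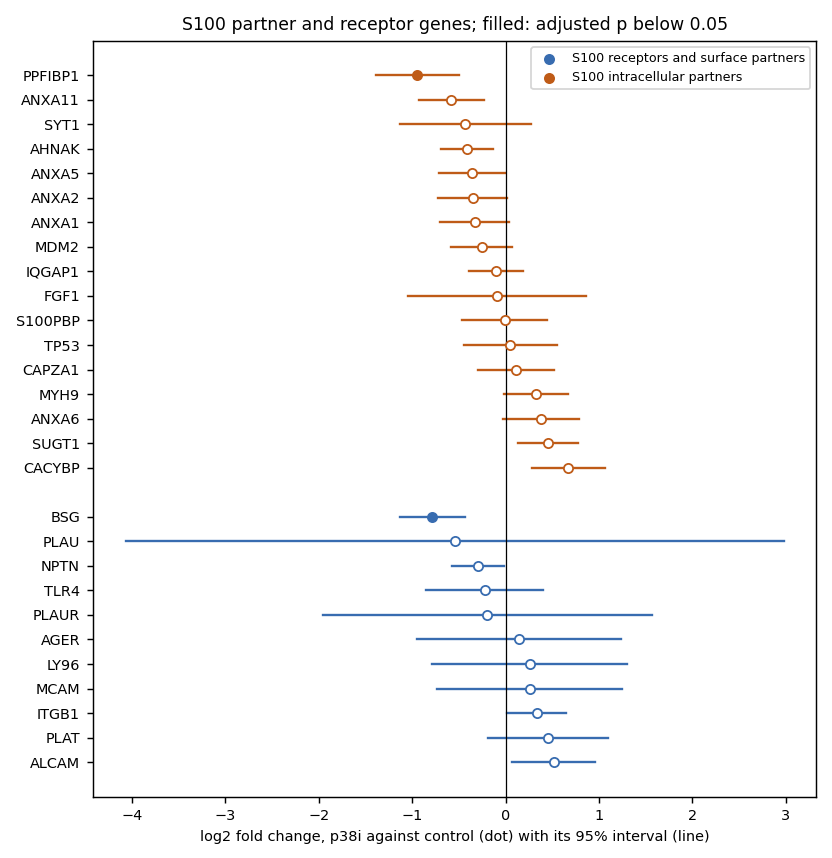
Log2 fold change in p38i against control (horizontal axis, dots, with 95% intervals as lines) of 17 intracellular partners (orange) and 11 receptors and surface partners (blue) of S100 proteins, filled where the adjusted p was below 0.05. PPFIBP1 (-0.95) and BSG (-0.78) are the filled dots, and the remaining genes lie on both sides of 0.

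Of 23 other genes for EF-hand calcium-binding proteins, among them the calmodulins, 22 were tested, and 0 passed edgeR's test in p38i, EZH2i or the combination against control, where 1.77%, 0.216% and 0.00799% of all genes passed. In p38i, EZH2i and the combination alike, 9 estimates were positive and 13 negative, with medians of -0.04, -0.02 and -0.04. The nearest was ACTN1 (alpha-actinin 1, which cross-links actin), with 368, 427 and 519 CPM in p38i tumours 3-3, col5 and col6, against 228, 315 and 299 CPM in control tumours 1-1, 1-3 and 2-1. All p38i tumours lay above all control tumours, and 24.8% of all genes did not overlap in this comparison. The log2 fold change was 0.64 (adjusted p = 0.081). DESeq2 called ACTN1 in this comparison, with an adjusted p of 0.0215, as did edgeR without EZH2i 5-4, with 0.0448. ACTN1 also lay above all control tumours in EZH2i (343, 495 and 382 CPM) and in the combination (442, 412 and 469 CPM). Neither passed edgeR's test (adjusted p = 0.196 and 0.180), and 16.4% and 22% of all genes did not overlap there. CAPN2, the large subunit of m-calpain, had 261, 260 and 236 CPM in p38i tumours, against 285, 349 and 366 CPM in control tumours, a log2 fold change of -0.40 (adjusted p = 0.181).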

How the data were processed

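RNA of 12 tumours (1.3 µg per library) was sequenced, and the deposited table holds raw counts per gene symbol, made by the authors. The submitters' processing notes name Trim Galore 0.5.0, STAR 2.6.0 and hg19. The program that counted reads and its annotation are not given in the sources used here, and the labels name both a SMARTer kit and QuantSeq. No hg19 reference was used, and upstream sequences come from RefSeq on GRCh38.p14, where all 10 genes matched. Another 3 rows without a gene name, all at 0, were not used. Columns were joined to samples by the number in each description, read as the header name.

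Counts were filtered with filterByExpr and scaled by TMM (trimmed mean of M values) in edgeR 4.0.16 (R 4.3.3). All 12 libraries entered 1 robust quasi-likelihood fit with a coefficient for each group, from which 9 two-sided contrasts were tested. Benjamini-Hochberg adjustment ran over 12514 genes with a threshold of 0.05, and every adjusted p in the text is edgeR's unless DESeq2 is named. Standard errors and 95% intervals come from the F statistics and cover single estimates. CPM of single genes are per TMM-scaled library, whereas CPM sums of marker lists are per total counts of the library, without TMM. CPM of different genes are not compared, since transcript length is not accounted for. The spread between tumours (biological coefficient of variation 0.219) sets the precision, beside totals of 2208771 to 4467942 counts. The labels do not say whether tumours came from separate mice, so p-values measure the spread between these libraries.

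All members are named, and from the partner and EF-hand lists the genes that passed in a comparison, or else the 2 genes with the smallest p against control. AHNAK, CACYBP, AGER, TLR4, KRT6A, TIE1 and PDGFRB belong to the lists and were picked out for naming after values were seen. CDH1 and EPCAM were listed as line markers, and setting them beside S100 genes was chosen after values were seen. The members and lists were chosen with earlier results of these data known. The code was tested on simulated counts. DESeq2 1.42.0, limma-voom (limma 3.58.1), other scalings, no low-count filter and leaving out each library were tried as alternatives.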

Additional observations from a re-analysis of the deposited data

How the results depend on the processing

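The count of S100 genes past the threshold was 0 in all 9 comparisons under each of the 5 alternative settings. It was also 0 with each of the 12 libraries left out. Without EZH2i 6-1, more of them fell below an unadjusted p of 0.05 in edgeR. These were 3 of 8 in EZH2i against control, 3 in combination against EZH2i and 4 in EZH2i against p38i. The factorial term for SB202190 had 2, that for the EZH2 inhibitor 1, and the interaction 2. Shares of all genes at that level were not counted for fits with a library left out. No paired analysis was possible because the tumour numbers of the titles do not repeat across groups. Some signs changed. The S100A13 estimate for p38i against control was 0.00054 with library totals as scaling. For S100A11, EZH2i against control gave -0.0032 with DESeq2's size factors in edgeR, -0.0012 in DESeq2 and -0.0027 without the low-count filter, and combination against control gave 0.026 with library totals. The cause was not tested.

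Leaving out 1 library, the p38i estimates ran from -0.30 to 0.21 (S100A3), -0.21 to 0.054 (S100A6) and -0.20 to 0.012 (S100A11). Those of EZH2i ran from -0.036 to 0.48 (S100A3), -0.15 to 0.13 (S100A4) and -0.11 to 0.10 (S100A11). Those of the combination ran from -0.59 to 0.0025 (S100A2), -0.032 to 0.15 (S100A4), -0.10 to 0.17 (S100A6), -0.026 to 0.16 (S100A10), -0.14 to 0.064 (S100A11) and -0.045 to 0.15 (S100A16). Interaction estimates ran from -0.046 to 0.17 (S100A11) and -0.29 to 0.14 (S100A16).

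Counts over all genes moved far more. In p38i against control they were 221 in edgeR, 632 in DESeq2, 161 in limma-voom and 292 without the filter, and 2 without p38i 3-3 to 568 without control 2-1. In EZH2i against control they were 27 in edgeR, 232 in DESeq2, 20 in limma-voom, 114 without the filter and 18 with library totals, and 2 without EZH2i 5-4 to 125 without control 2-1. In the combination they were 1 in edgeR, 167 in DESeq2, 2 in limma-voom, 42 without the filter and 3 with library totals, and 0 to 229 with 1 library left out. For the interaction they were 3 in edgeR, 226 in DESeq2, 70 without the filter, and 2 to 42 with 1 library left out. S100A3 had 11 to 49 counts per library and S100A14 had 0 to 17, and S100A8 and S100A9 were not in the filtered test.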
